A study of Mus musculus with 6 samples.

Results

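Kinesin motor genes were followed through RNA sequencing of the stem cell and transit amplifying regions of the mouse incisor. They were taken by symbol, as every row named Kif with a number or Kifc with a number, which gave 39 of the 23718 genes in the deposited table. By known role they were divided into 13 mitotic kinesins, 15 transport kinesins and 11 others, which act in cilia, in Hedgehog or WNT signaling, at microtubule ends or in more than one of these. Kif12, Kif28 and Kif2b, which had been placed in the third list, were not among the rows.

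Samples of mesenchymal stem cells (MSC) were taken from the region labeled in Gli1-CreER;tdT mice and the transit amplifying cell (TAC) samples from the region labeled in Axin2-CreER;tdT mice, with 3 samples in each group. The methods write these lines in full as Gli1-CreERT2;Rosa26 fs-tdTomato and Axin2-CreERT2;Rosa26 fs-tdTomato. Mice of both groups were 1 month old, were labeled as strain C57BL/6 (the study's methods describe a mixed background), carried the same tdTomato reporter at Rosa26 and received tamoxifen 1 day before collection. Cells were cut from frozen sections with a laser under the microscope (laser capture microdissection). The group and its driver allele cannot be told apart, since each region was taken from 1 genotype. The methods give 3 mice per group, and whether each library came from 1 mouse was not stated.

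Kinesins are motor proteins that use ATP to move along microtubules or to take them apart at their ends. Mitotic kinesins push the spindle poles apart, align and move chromosomes and build the bridge at which the daughter cells separate, and their genes are known to be most active late in the cell cycle. Transport kinesins carry vesicles, organelles, RNA and ciliary proteins and are used by cells whether or not they divide. TACs of the incisor are known as the dividing progeny of slowly cycling MSCs, so the comparison asks how the 2 kinds of motor differ between these compartments.

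Values are normalized read numbers, that is estimated reads scaled per library and not divided by gene length. Estimated reads numbered 20203159 to 25567244 in replicates 1 and 2 of both groups, 59793645 in MSC replicate 3 and 108156380 in TAC replicate 3. Replicate 3 stood apart from replicates 1 and 2 in both groups. Of the 15391 genes tested, 21.4% had no read in MSC replicate 3 and 9.58% in TAC replicate 3, against at most 0.754% in the other libraries. Among the kinesins, 9 had no read in MSC replicate 3 (6 mitotic and 3 others) and 4 had none in TAC replicate 3 (2 transport and 2 others). Results are therefore also given within replicates 1 and 2 and within replicate 3, for which a group is a single library without a test. All 8 markers of dental mesenchyme had reads in every library, with summed levels of 1065 to 1188 in MSC and 720.0 to 910 in TAC. Members differed in direction. Pax9, Lhx8, Prrx1 and Vim were higher in every MSC sample than in any TAC sample (4 of 8, where 12.2% of all genes did so). Msx1 and Msx2 went the other way without overlap (2 of 8, against 12.3% of all genes).

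Mitotic kinesin promoters are shown first, because they share a sequence that the choice of genes did not use. RefSeq promoters, 250 bases before to 50 bases after the start site on GRCm38.p6, were matched for 31 of the 39 members. Those not matched were Kif20a, Kif5a, Kif5b, Kif13b, Kifc2, Kifc3, Kif19a and Kif21b. The search covered both strands for the cell cycle genes homology region (CHR, with the letters TTTGAA), an element known from promoters of late cell cycle genes, and for CCAAT, which often stands near it. A CHR match was found in 11 of 12 mitotic promoters (91.7%), in 0 of 10 transport promoters and in 2 of 9 others (Kif26b and Kif27), against 17.9% of all 32851 promoters. Counting only matches within 30 bases of the start, a window chosen after the positions were seen, there were 9 of 12 mitotic promoters (75%), 0 of 10 transport promoters and 1 of 9 others, against 3.14% of all. Both motifs were present in 8 of 12 mitotic promoters, 0 of 10 transport promoters and 2 of 9 others, against 6.95% of all promoters. CCAAT by itself was less uneven, with 8 of 12 mitotic, 3 of 10 transport and 4 of 9 other promoters, against 37.4% of all. The TATAAA motif was found in 1 of 12, 1 of 10 and 2 of 9, against 13.6% of all.

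The 8 mitotic promoters below are those whose CHR match lies whole within a window from 60 bases before to 30 bases after the start. Each is read 5′ to 3′ on the strand of its gene, with CHR and CCAAT matches on either strand in capitals:
Kif23 (chr9:61946770-61946859, minus strand): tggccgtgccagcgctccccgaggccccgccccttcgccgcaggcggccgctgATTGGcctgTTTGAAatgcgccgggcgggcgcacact
Kif11 (chr19:37376322-37376411, plus strand): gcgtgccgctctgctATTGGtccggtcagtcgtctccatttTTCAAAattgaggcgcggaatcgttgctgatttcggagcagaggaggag
Kif15 (chr9:122951021-122951110, plus strand): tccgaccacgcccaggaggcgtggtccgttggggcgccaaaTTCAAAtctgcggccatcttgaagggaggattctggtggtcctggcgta
Kif18b (chr11:102925095-102925184, minus strand): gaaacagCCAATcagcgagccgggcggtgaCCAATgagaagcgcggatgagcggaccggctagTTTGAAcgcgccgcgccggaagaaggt
Kif20b (chr19:34922298-34922387, plus strand): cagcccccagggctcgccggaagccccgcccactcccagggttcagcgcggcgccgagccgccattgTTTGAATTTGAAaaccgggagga
Kif22 (chr7:127042391-127042480, minus strand): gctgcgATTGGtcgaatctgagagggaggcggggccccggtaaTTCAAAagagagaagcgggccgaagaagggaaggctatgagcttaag
Kif4 (chrX:100626005-100626094, plus strand): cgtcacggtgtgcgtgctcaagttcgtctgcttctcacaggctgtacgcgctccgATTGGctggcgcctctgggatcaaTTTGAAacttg
Kifc1 (chr17:33890604-33890693, minus strand): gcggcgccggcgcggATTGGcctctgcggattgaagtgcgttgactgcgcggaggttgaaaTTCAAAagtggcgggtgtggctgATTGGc

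In Kif11, Kif15 and Kif22 the match began 19, 19 and 17 bases before the start. In Kif23, Kif18b, Kif4 and Kifc1 it began 3, 4, 20 and 2 bases after it, and Kif20b had adjoining matches 8 and 14 bases after it. The ninth near match, in Kifc5b, began 30 bases after the start and runs out of the window. Kifc5b is a near copy of Kifc1, so these 2 promoters do not count as separate cases. Kif18a, a motor that damps the movements of aligned chromosomes, had no CHR match in its window. The RefSeq starts of Kif14, Kif2c, Kif4 and Kif17 lay 1505, 3867, 328 and 11816 bases from the gene start of the deposited table, so their windows may not lie at the starts that the authors used. A match describes the letters and is not evidence of a bound factor.

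For contrast, the next windows belong to the transport kinesin with the largest log2 fold change among those with a matched promoter (Kif1a), to 2 further transport kinesins (Kif13a and Kif3a, chosen after their values were seen) and to the other kinesin with the largest log2 fold change (Kif9). Capitals mark the same motifs:
Kif1a (chr1:93101845-93101934, minus strand): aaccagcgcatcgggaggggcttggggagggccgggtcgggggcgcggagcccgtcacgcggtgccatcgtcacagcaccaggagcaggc
Kif13a (chr13:46929689-46929778, minus strand): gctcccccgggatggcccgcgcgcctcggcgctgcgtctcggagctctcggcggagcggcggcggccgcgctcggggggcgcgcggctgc
Kif3a (chr11:53567309-53567398, plus strand): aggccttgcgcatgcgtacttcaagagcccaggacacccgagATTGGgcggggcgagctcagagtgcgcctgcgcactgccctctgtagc
Kif9 (chr9:110476898-110476987, plus strand): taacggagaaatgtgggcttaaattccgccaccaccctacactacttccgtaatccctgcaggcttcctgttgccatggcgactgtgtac

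Only Kif3a of these 4 held a capital run, a CCAAT match 18 bases before the start. Kif1a, Kif13a and Kif9 held neither motif in the 300-base promoter.

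**Figure D1:**
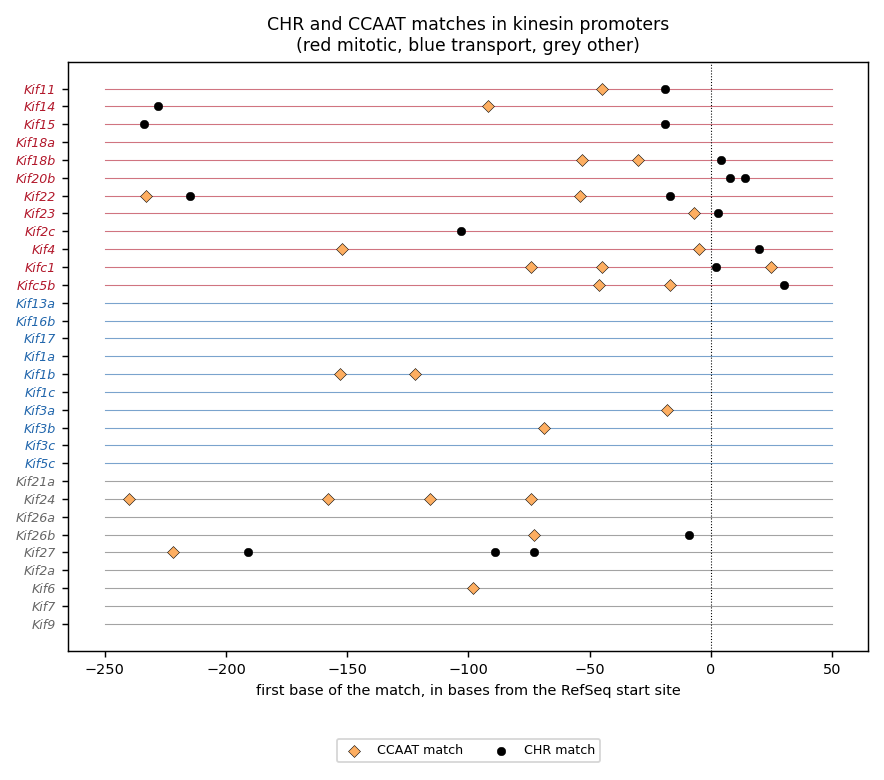
Position of CHR matches (black circles) and CCAAT matches (orange diamonds) in the 31 matched kinesin promoters, in bases from the RefSeq start site (dotted line), with 1 row per gene and gene names in red for mitotic, blue for transport and grey for other kinesins. Black circles are found in 11 of 12 mitotic rows, most of them close to the start, and in 0 of 10 transport rows.

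Mitotic kinesins were higher in TAC as a class. All 13 had a positive log2 fold change (TAC minus MSC, of value + 1), from 1.35 for Kif2c to 3.12 for Kif23, with a median of 2.18 against 0.03 over all genes tested. In 10 of 13 every TAC value lay above every MSC value, where 12.3% of all genes did so. In replicates 1 and 2 all 13 were higher in TAC without overlap (33.4% of all genes), by 2.54-fold for Kifc5b to 8.01-fold for Kif2c with a median of 4.64-fold. In replicate 3, 12 of 13 were higher in TAC, and 12 of 13 were higher in each of the 3 pairs of same-numbered samples (24.6% of all genes, against 26.4% lower in each pair). In bulk samples such as these, fewer cells of a type and less RNA per cell cannot be told apart.

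With limma, 0 of the 13 passed an adjusted p-value of 0.05, a threshold that 0.039% of all genes passed toward TAC and 0.422% in either direction. The unadjusted p-value was under 0.05 for 10 of 13, all higher in TAC, against 5.42% of all genes. The same 2 counts were 0 and 9 with limma voom on the estimated reads, against 0.039% (either direction) and 8.41% (toward TAC) of all genes by that method. The median log2 fold change of the class was 1.70 without MSC replicate 3, where all 13 were still positive, and 2.54 without TAC replicate 3. Without MSC replicate 3, the library in which 6 of the 13 had no read, Kif23 and Kif11 passed the adjusted threshold (2 of 13, against 0.612% of all genes) and 11 passed the unadjusted one (8.62% of all genes toward TAC). Without TAC replicate 3 the counts were 0 and 11 (5.6% of all genes toward TAC). Leaving out TAC replicate 1 or TAC replicate 2 brought the unadjusted count to 6, while the share of all genes toward TAC went to 2.61% or 2.64%. A block for the replicate number gave 0 mitotic kinesins under the adjusted and 12 under the unadjusted threshold (9.43% of all genes toward TAC).

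Of the motors that separate the spindle poles, Kif11 had the second largest log2 fold change of the class, while Kif15 lay below the class median. Kif11, which slides the microtubules of opposite poles apart (chromosome 19, 37376403 to 37421859, plus strand, mm10), measured 15.2, 13.0 and 0.00666 in the MSC samples and 59.1, 58.3 and 38.1 in the TAC samples, each in the order of replicates 1, 2 and 3, as below. The value 0.00666 is that of a gene without a read in MSC replicate 3. All TAC values stood above all MSC values, with means of 9.43 ± 8.23 and 51.9 ± 11.9 (SD, n = 3). Its log2 fold change came to 3.08 (SE 1.02, adjusted p = 0.296 by limma). Replicates 1 and 2 gave 1.98 and replicate 3 gave 5.28. Without MSC replicate 3 it was 1.78 (adjusted p = 0.0460 by limma, within a range of 3.18e-13 to 0.801 over 18 alternatives). Kif15, which can stand in for Kif11 in keeping the spindle bipolar (chromosome 9, 122951046 to 123018733, plus strand), measured 10.4, 12.3 and 9.94 in MSC and 57.6, 57.3 and 28.6 in TAC. Its MSC values lay close together in all 3 libraries, and the change of 1.98 on the log2 scale had the smallest SE of the class, 0.37 (adjusted p = 0.0935 by limma). That adjusted p was also the lowest of the 13, which ran up to 0.613 by limma.

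Motors of the central spindle and of cytokinesis showed the same order of groups. Kif23, the motor of the centralspindlin complex (chromosome 9, 61915905 to 61946774, minus strand), measured 8.90, 9.16 and 0.00666 in MSC and 45.9, 41.9 and 32.1 in TAC. Its lowest TAC value was thus above its highest MSC value, with means of 6.02 ± 5.21 and 39.9 ± 7.10 (SD, n = 3). The change, 3.12 on the log2 scale (SE 0.89, adjusted p = 0.220 by limma), was the largest of any kinesin tested, and replicates 1 and 2 gave 2.16 and replicate 3 gave 5.04. Without MSC replicate 3 it was 2.01 (adjusted p = 0.0366 by limma, range over 18 alternatives 9.03e-13 to 0.786). Kif20a, which brings the Aurora B complex to the midzone, was 11.97, 7.55 and 0.00666 in MSC and 44.3, 40.4 and 20.5 in TAC. Kif14, which acts with citron kinase at the midbody, was 6.18, 4.17 and 0.00666 in MSC and 28.1, 29.7 and 7.40 in TAC. For both, all 3 TAC values were the higher ones, though TAC replicate 3 of Kif14 exceeded MSC replicate 1 by little. Their log2 fold changes were 2.83 (SE 0.94) and 2.55 (SE 0.89). They were 1.70 and 1.68 without MSC replicate 3, where neither had a read. The difference for Kif20a was 2.04 within replicates 1 and 2 against 4.42 within replicate 3, and that for Kif14 was 2.29 against 3.06. Exons of Kif20a overlap those of Cdc23 on the other strand over 1271 bases, and whether strand was used in counting was not stated.

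Kif20b, another motor of late cytokinesis, differed between the library sets. It was 10.6, 10.4 and 0.353 in MSC and 45.6, 52.2 and 2.79 in TAC. The groups overlapped, because TAC replicate 3 lay below MSC replicates 1 and 2, and the log2 fold change was 1.90 (SE 1.25, adjusted p = 0.613 by limma). Within each library set TAC was higher, by 2.11 on the log2 scale in replicates 1 and 2 and by 1.49 in replicate 3. The pooled value was 0.87 without MSC replicate 3 and 3.14 without TAC replicate 3.

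Chromosome-bound and microtubule-end motors followed. Kif4, a chromokinesin that also works with Prc1 in the midzone, was 4.36, 6.13 and 0.00666 in MSC and 25.3, 27.8 and 10.2 in TAC. Kif22, which pushes chromosome arms away from the poles, was 8.93, 6.11 and 0.932 in MSC and 26.6, 25.3 and 16.6 in TAC. Neither gene's groups overlapped, and the log2 fold changes were 2.60 (SE 0.83) and 2.18 (SE 0.66), or 1.72 and 1.48 without MSC replicate 3. The difference for Kif4 was 2.15 within replicates 1 and 2 against 3.48 within replicate 3, and that for Kif22 was 1.68 against 3.18. Exons of Kif4 overlap those of Pdzd11 on the other strand over 832 bases. Kif18b, which works at microtubule plus ends, was 5.196, 3.33 and 1.45 in MSC and 25.0, 20.04 and 12.3 in TAC, with a change of 2.26 on the log2 scale (SE 0.53, adjusted p = 0.153 by limma). All its TAC values were more than double its highest MSC value. Kif18a was 3.598, 3.45 and 0.00666 in MSC and 11.8, 11.9 and 2.87 in TAC, so that TAC replicate 3 fell within the MSC range (log2 fold change 1.65, SE 0.82, and 0.93 without MSC replicate 3).

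Kif2c, which takes microtubules apart at the centromere (chromosome 4, 117159639 to 117182639, minus strand), was the 1 mitotic kinesin whose direction differed between library sets. It was 2.69, 2.70 and 25.6 in MSC and 21.2, 21.9 and 10.7 in TAC. MSC replicate 3 was therefore the highest of all 6 samples, while MSC replicates 1 and 2 were the lowest. Its log2 fold change, 1.35 (SE 0.82, adjusted p = 0.583 by limma), was made up of 2.61 in replicates 1 and 2, the largest of the class there, and -1.18 in replicate 3. Without MSC replicate 3 it was 2.30 (adjusted p = 0.0591 by limma).

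Kifc1, a minus-end motor that gathers spindle poles, was 6.91, 8.47 and 3.59 in MSC and 30.1, 33.5 and 15.2 in TAC. Its groups did not overlap, and the log2 fold change was 1.89 (SE 0.47, adjusted p = 0.179 by limma). Kifc5b was 1.36, 5.76 and 0.326 in MSC and 9.29, 8.76 and 11.6 in TAC, also without overlap (log2 fold change 1.97, SE 0.68). These 2 values are uncertain, since 34.6% of the 75-base words of Kifc1 and 30.2% of those of Kifc5b occur in another gene, against at most 0.56% in any other member.

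Members of the mitotic class differed from each other less in replicates 1 and 2 than those of the other classes. The SD of the log2 differences over members was 0.34 for the 13 mitotic kinesins, 0.62 for the 15 transport kinesins and 0.56 for the 10 others tested. In replicate 3 the same SDs were 1.73, 1.49 and 1.32.

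**Figure D2:**
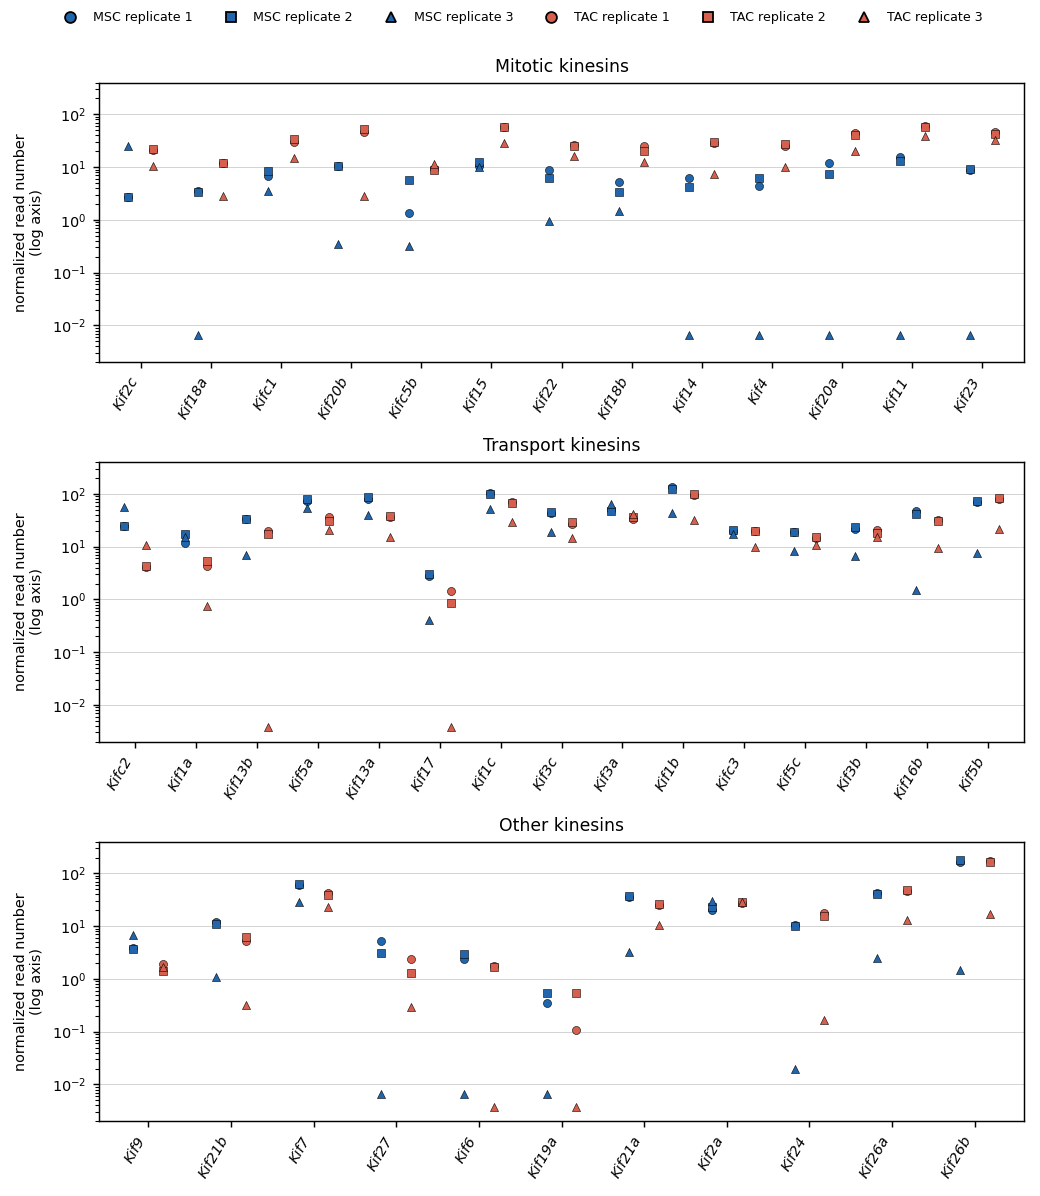
Normalized read number (log axis) of each of the 39 kinesins in the 3 MSC samples (blue) and 3 TAC samples (red), with circles, squares and triangles for replicates 1, 2 and 3, and genes ordered by log2 fold change within each class. Red points lie above blue points of the same shape for all mitotic kinesins except Kif2c in replicate 3, and the lowest triangles (0.00666 in MSC, 0.00379 in TAC) are genes without a read.

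Most transport kinesins had lower values in TAC on all 6 samples, though few passed a threshold. Of 15, 12 had a negative log2 fold change, the range was -2.30 for Kifc2 to 0.61 for Kif5b and the median was -0.55. In 5 (Kifc2, Kif1a, Kif5a, Kif13a and Kif3a) every MSC value lay above every TAC value, and in 0 was it the reverse, where 12.2% and 12.3% of all genes did so. In replicates 1 and 2, 14 were lower in TAC without overlap (39.5% of all genes) and Kif5b was higher. In replicate 3, 11 were lower and 4 higher (Kif16b by 2.02, Kif5b by 1.41, Kif3b by 1.09 and Kif5c by 0.37 on the log2 scale). In each of the 3 pairs 11 were lower (26.4% of all genes) and 1 higher (24.6%). All 15 were negative without MSC replicate 3 (median -0.98, against -0.14 over all genes) and 9 of 15 without TAC replicate 3 (median -0.24, against 0.14).

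With limma, 0 of 15 passed the adjusted threshold, which 0.383% of all genes passed toward MSC, and 4 of 15 (Kifc2, Kif1a, Kif5a and Kif13a) passed at an unadjusted p-value under 0.05, all higher in MSC, against 6.43% of all genes. Adjusted p-values ran from 0.142 to 0.974, and with limma voom the counts were 0 and 5, against 0.039% (either direction) and 6.59% (toward MSC) of all genes by that method. When the replicate number was added as a block, Kifc2 passed the adjusted threshold. Of all genes 1.49% did so in either direction, and 136 of 15391 toward MSC. In that fit 9 of 15 passed the unadjusted threshold (10.9% of all genes toward MSC).

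Kifc2, a minus-end motor known from dendritic transport in neurons (chromosome 15, 76660641 to 76668196, plus strand), had the largest difference of the class. It was 24.3, 24.7 and 55.4 in MSC and 4.09, 4.22 and 10.6 in TAC. In each library set MSC was the higher group, and the lowest MSC value exceeded the highest TAC value. The change, on the log2 scale -2.30 (SE 0.51, adjusted p = 0.142 by limma), was nearly the same in both library sets, at -2.30 in replicates 1 and 2 and -2.28 in replicate 3. With the replicate block the limma adjusted p was 0.0442, within a range of 7.58e-11 to 1.0 over 18 alternatives. Its exons overlap those of Cyhr1 on the other strand over 163 bases.

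Kif1a, which carries synaptic vesicle precursors along axons (chromosome 1, 93015464 to 93101951, minus strand), measured 11.8, 17.5 and 15.1 in MSC and 4.36, 5.44 and 0.758 in TAC. Its groups did not overlap, and the log2 fold change was -1.99 (SE 0.60, adjusted p = 0.254 by limma). The difference was -1.39 within replicates 1 and 2 against -3.20 within replicate 3. Kif5a, a heavy chain of conventional kinesin known mainly from neurons, was 74.2, 80.8 and 54.6 in MSC and 36.6, 30.6 and 21.03 in TAC. Kif13a, which positions endosomes, was 80.8, 89.1 and 40.2 in MSC and 37.2, 37.4 and 15.4 in TAC. Both had all MSC values above all TAC values, with log2 fold changes of -1.24 (SE 0.32, adjusted p = 0.180 by limma) and -1.22 (SE 0.47, adjusted p = 0.364 by limma). Kif13b, its relative, was 33.8, 32.8 and 6.81 in MSC and 19.8, 17.0 and 0.00379 in TAC. MSC replicate 3 fell below TAC replicates 1 and 2, so its groups overlapped (log2 fold change -1.54, SE 1.23). That value was -0.11 without TAC replicate 3, which had no read of it, and -2.25 without MSC replicate 3, and the difference was -0.83 within replicates 1 and 2, against -2.96 within replicate 3.

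The 3 conventional kinesin heavy chains did not all have the same sign. Kif5b, the widely used form, was 69.1, 73.2 and 7.43 in MSC and 81.4, 82.9 and 21.3 in TAC, higher in TAC by 0.21 on the log2 scale in replicates 1 and 2 and by 1.41 in replicate 3 (log2 fold change 0.61, SE 0.93, and -0.43 without MSC replicate 3). Kif5c was 18.6, 18.7 and 8.09 in MSC and 14.6, 15.3 and 10.7 in TAC (log2 fold change -0.08, SE 0.43), lower in TAC in replicates 1 and 2 and higher in replicate 3. Only Kif5a of the 3 had groups that did not overlap. The difference between these genes' changes was not tested.

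None of the kinesin-2 motors, which carry cargo into the cilium, passed either threshold with limma on all 6 samples without a block. In the blocked fit Kif3a and Kif3c came under the unadjusted threshold, toward MSC. Kif3a was 48.7, 47.2 and 64.5 in MSC and 33.0, 36.5 and 41.0 in TAC (log2 fold change -0.52, SE 0.27, adjusted p = 0.508 by limma), with no overlap. Its partner Kif3b was 21.98, 23.2 and 6.71 in MSC and 20.3, 18.4 and 15.4 in TAC (log2 fold change 0.22, SE 0.50), with a lower value in TAC in replicates 1 and 2 and a higher one in replicate 3. Kif17 was low throughout, at 2.83, 3.07 and 0.399 in MSC and 1.47, 0.839 and 0.00379 in TAC (log2 fold change -0.75, SE 0.65). Kif3c had a log2 fold change of -0.55.

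Of the kinesin-3 motors, Kif1b, which carries mitochondria and synaptic vesicle precursors, was 136.8, 126.2 and 43.7 in MSC and 95.6, 97.7 and 31.5 in TAC (log2 fold change -0.45, SE 0.60). Kif1c, a fast vesicle carrier, was 103.6, 101.2 and 52.0 in MSC and 68.9, 66.7 and 29.5 in TAC (log2 fold change -0.66, SE 0.44). Each was lower in TAC within replicates 1 and 2 and within replicate 3, while the pooled groups overlapped through MSC replicate 3. Kif16b, a motor of early endosomes, was 48.0, 42.0 and 1.54 in MSC and 31.7, 30.6 and 9.27 in TAC. Its direction differed between library sets, with -0.51 in replicates 1 and 2 and 2.02 in replicate 3. Kifc3 had a log2 fold change of -0.30.

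**Figure D3:**
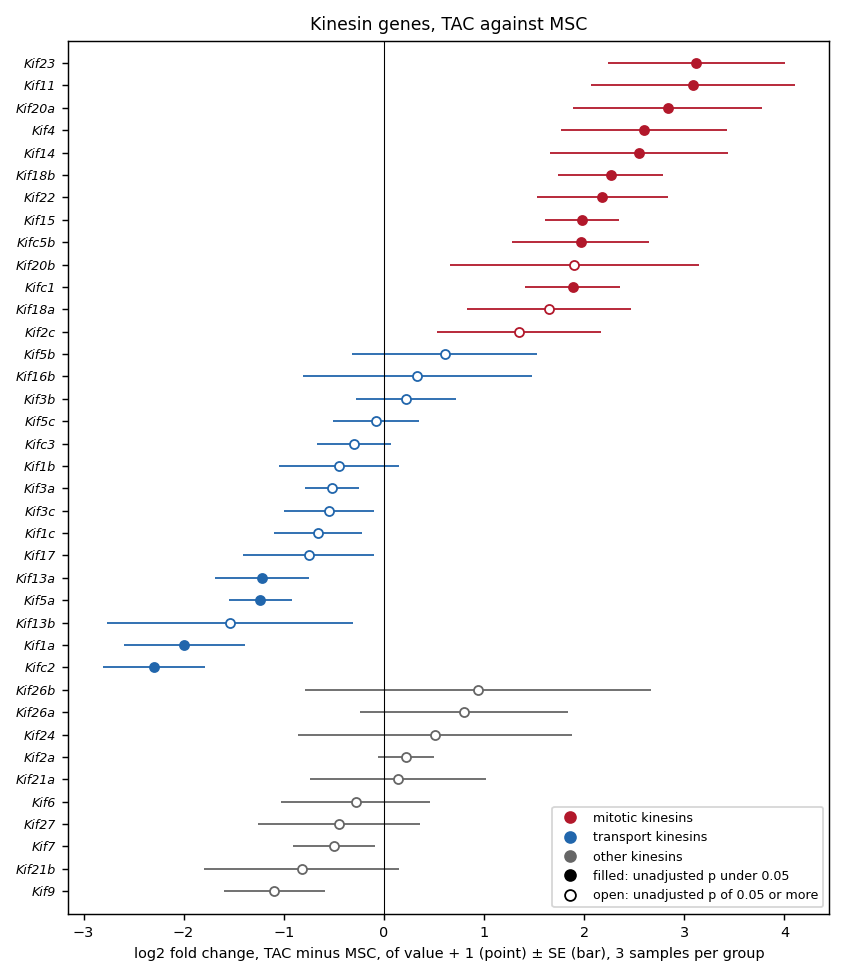
Log2 fold change (TAC minus MSC, of value + 1) of the 38 kinesins tested, with bars of 1 SE from limma on 3 samples per group, red for mitotic, blue for transport and grey for other kinesins. Filled points have an unadjusted p-value under 0.05, 10 mitotic to the right of 0 and 4 transport to the left, and 0 of the 38 passed the adjusted threshold.

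**Figure D4:**
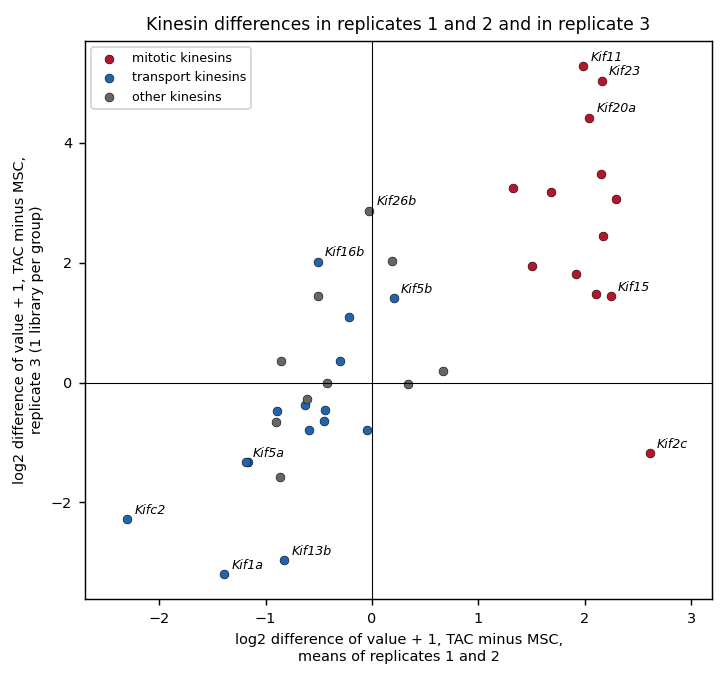
Log2 difference TAC minus MSC of each tested kinesin in replicates 1 and 2 (horizontal axis, means of 2 libraries per group) and in replicate 3 (vertical axis, 1 library per group), colored by class. The mitotic kinesins lie at 1.33 to 2.61 on the horizontal axis and above 0 on the vertical axis except Kif2c at -1.18, and the points of replicate 3 spread more widely.

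The direction of the other kinesins depended on the libraries. Kif19a had a mean below 1 and was not tested. Of the 10 tested, 0 passed the adjusted or the unadjusted threshold with limma or with limma voom, 5 had a positive and 5 a negative log2 fold change, and the median was -0.07. In replicates 1 and 2, 3 were higher and 7 lower in TAC with a median of -0.46, and 6 of the 10 were lower without overlap (39.5% of all genes). With MSC replicate 3 left out, 1 was positive and 9 negative with a median of -0.88, and without TAC replicate 3, 6 were positive and 4 negative with a median of 0.20. Kif7 and Kif9 came under the unadjusted threshold, toward MSC, in the blocked fit and again when MSC replicate 3 was left out, 2 of 10 where 10.9% and 11.4% of all genes did so. Kif9, a motor known from motile cilia and sperm, was 3.92, 3.71 and 6.94 in MSC and 1.91, 1.42 and 1.68 in TAC, the 1 member of the class whose groups did not overlap (log2 fold change -1.10, SE 0.50, adjusted p = 0.455 by limma).

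Kif7, a regulator of Hedgehog signaling at the tip of the cilium, was 61.4, 63.8 and 28.6 in MSC and 42.4, 39.1 and 23.6 in TAC (log2 fold change -0.50, SE 0.41). It was lower in TAC within both library sets, and an antisense gene, 9330171B17Rik, overlaps 877 of its exon bases. Kif26b, which takes part in WNT5A signaling, was 162.7, 182.5 and 1.47 in MSC and 173.0, 165.0 and 17.0 in TAC. Its values in replicates 1 and 2 of the 2 groups overlapped (log2 difference -0.03), and the pooled 0.94 (SE 1.73) came from replicate 3, where the difference was 2.87. Kif26a, known from the developing enteric nervous system, was 43.2, 41.0 and 2.48 in MSC and 46.9, 49.4 and 13.1 in TAC (log2 fold change 0.80, SE 1.04). Kif21b, which limits microtubule growth, was 12.2, 10.9 and 1.08 in MSC and 5.17, 6.28 and 0.315 in TAC (log2 fold change -0.82, SE 0.98). In both, replicate 3 of each group lay well below replicates 1 and 2, and the pooled groups overlapped. With MSC replicate 3 left out, Kif26a came to -0.41 and Kif21b to -1.69. With TAC replicate 3 left out they came to 1.40 and -0.038. Adjusted p-values by limma ran from 0.455 to 0.977 over the 10 others.

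Kif2a and Kif24, which act at spindle poles and centrioles, lay nearer to 0 than the mitotic class in the fit of all 6 samples. Kif2a, which takes microtubules apart at spindle poles and in growing neurites, was 20.5, 23.4 and 29.4 in MSC and 27.8, 28.2 and 28.9 in TAC (log2 fold change 0.22, SE 0.28). Kif24, which trims microtubules at the mother centriole, was 10.5, 10.1 and 0.01997 in MSC and 17.8, 15.9 and 0.167 in TAC (log2 fold change 0.51, SE 1.37, or -0.65 without MSC replicate 3 and 1.82 without TAC replicate 3). Both were higher in TAC in replicates 1 and 2, by 0.34 and 0.67 on the log2 scale, against 1.33 to 2.61 for the mitotic members. In Kif2a the TAC samples lay within the MSC range, and 1229 of its exon bases overlap Dimt1 on the other strand.

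To compare levels between genes, values were divided by exon length in kilobases. In MSC the highest mean levels per kilobase were those of Kif3a (14.9 ± 2.68, SD, n = 3), Kif1c (11.8 ± 4.01), Kif7 (11.2 ± 4.29), Kif5a (9.995 ± 1.96) and Kifc2 (8.84 ± 4.54), none of them mitotic. In TAC they were those of Kif3a (10.3 ± 1.12), Kif20a (8.08 ± 2.94), Kif26b (8.05 ± 5.98), Kif5b (7.75 ± 4.40) and Kifc1 (7.70 ± 2.87). The ranges of mean ± SD overlapped between neighbors in both orders.

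This order rested in part on replicate 3. The highest level per kilobase was that of Kif1c in MSC replicate 1, of Kif7 in MSC replicate 2 and of Kif3a in MSC replicate 3, and that of Kif26b in TAC replicates 1 and 2 and of Kif3a in TAC replicate 3. By the mean of replicates 1 and 2, Kif3a stood at rank 3 of 39 in MSC and rank 4 in TAC, and Kif26b at rank 4 and rank 1. Kifc2 was at rank 10, 9 and 2 in the MSC samples and at rank 32, 32 and 14 in the TAC samples. The 3 mitotic motors Kif20a, Kif11 and Kif23 ranked higher in TAC with and without replicate 3. By the mean of replicates 1 and 2 Kif20a was at rank 20 in MSC and rank 3 in TAC, Kif11 at rank 21 and rank 8, and Kif23 at rank 27 and rank 12. By the mean of all 3 samples the ranks were 22 and 2 for Kif20a, 23 and 8 for Kif11 and 30 and 11 for Kif23.

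Summed per kilobase, mitotic kinesins made up 10.4%, 9.95% and 9.71% of the kinesin level in the 3 MSC samples and 41.2%, 41.3% and 41.5% in the 3 TAC samples. The share was thus about 4 times as high in every TAC sample, with means of 10.03% ± 0.371 and 41.4% ± 0.169 (SD, n = 3). The close match of MSC replicate 3 rested on Kif2c. With Kif2c left out, a choice made after seeing the data, the shares were 10.1%, 9.60% and 3.28% in MSC and 39.6%, 39.6% and 39.9% in TAC. Transport kinesins held 66.0% ± 7.77 in MSC and 38.1% ± 3.05 in TAC, and the others 23.99% ± 7.5 and 20.5% ± 3.21. The summed mitotic level per kilobase was 16.4, 16.0 and 8.55 in MSC and 72.8, 72.2 and 36.6 in TAC, and the transport level 96.9, 98.5 and 66.0 in MSC and 64.0, 63.8 and 36.6 in TAC. Both sums were lower in replicate 3 of each group, while the order of the groups was the same in replicates 1 and 2 and in replicate 3.

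**Figure D5:**
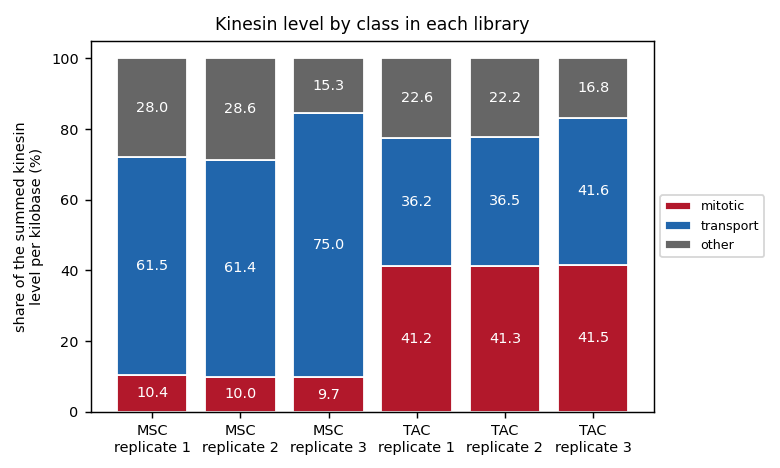
Share (%) of the summed kinesin level per kilobase held by mitotic (red), transport (blue) and other (grey) kinesins in each of the 6 libraries, with 1 bar per library summing to 100. The mitotic share was 9.71% to 10.4% in the MSC bars and 41.2% to 41.5% in the TAC bars.

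Partners of the mitotic kinesins showed the direction of the motors. Of 19 listed genes, 18 had a positive log2 fold change with a median of 2.08, 15 passed at an unadjusted p-value under 0.05, all toward TAC (5.42% of all genes), and 1 passed the adjusted threshold (0.039% of all genes). In the blocked fit the adjusted count was 4 (Spag5, Tpx2, Birc5 and Mki67), against 0.604% of all genes toward TAC, and leaving out MSC replicate 3 made it 6, against 0.612%. Spag5, a spindle protein, rose from 7.36, 7.77 and 6.68 in MSC to 33.9, 35.1 and 33.9 in TAC (log2 fold change 2.10, SE 0.30, adjusted p = 0.0455 by limma). Its 6 values formed 2 tight groups, with replicate 3 in step with replicates 1 and 2, though the limma adjusted p ranged from 1.38e-11 to 1.0 over 18 alternatives, and 8 of these left it past the threshold. Leaving out any library other than MSC replicate 3 ended its call. Racgap1, which pairs with Kif23, was 10.5, 7.97 and 1.56 in MSC and 40.1, 40.1 and 32.9 in TAC (log2 fold change 2.59, SE 0.59, adjusted p = 0.148 by limma). Prc1, which recruits Kif4 to the midzone, was 13.6, 15.0 and 11.8 in MSC and 55.9, 50.4 and 26.8 in TAC (log2 fold change 1.59, SE 0.36, adjusted p = 0.148 by limma).

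Aurkb, the kinase that Kif20a brings to the midzone, had the largest difference of the list on all 6 samples, at 2.80, 2.90 and 0.00666 in MSC and 16.6, 15.9 and 17.3 in TAC (log2 fold change 2.84, SE 0.64, adjusted p = 0.148 by limma). Within replicates 1 and 2 the largest was that of Birc5, at 2.42 against 2.16 for Aurkb. Cenpe, a kinetochore kinesin whose symbol falls outside the rule, was 21.4, 22.4 and 0.00666 in MSC and 93.8, 94.8 and 17.9 in TAC (log2 fold change 2.78, SE 1.28). Its groups overlapped through TAC replicate 3, and the value was 1.28 without MSC replicate 3, which had no read of it, 2.06 within replicates 1 and 2, and 4.23 within replicate 3. The proliferation marker Mki67 was 136.9, 130.1 and 41.5 in MSC and 592.9, 629.7 and 122.0 in TAC (log2 fold change 1.97, SE 0.75, adjusted p = 0.361 by limma). In the blocked fit it had an adjusted p of 0.0442 by limma (range over 18 alternatives 9.06e-22 to 1.0). It was 4.58-fold higher in TAC in replicates 1 and 2, close to the median of 4.64-fold over the mitotic kinesins there. In replicate 3 its log2 difference was 1.53, against a median of 3.06 over the mitotic kinesins. Numa1 was the 1 partner with a negative log2 fold change, -0.30 (SE 0.79). Without MSC replicate 3 the values of Aurkb, Racgap1 and Numa1 were 2.19, 1.92 and -1.11, and without TAC replicate 3 that of Mki67 was 2.74.

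Partners of the transport kinesins were more often lower in TAC than higher. In 6 of the 24 genes every MSC value lay above every TAC value and in 0 the reverse, where 12.2% and 12.3% of all genes did so. In replicates 1 and 2, 16 were lower in TAC without overlap (39.5% of all genes) and 4 higher (33.4%). In each of the 3 pairs 12 were lower (26.4% of all genes) and 3 higher (24.6%). The list held 25 symbols for these 24 genes, since Kif1bp and Kifbp name the same gene, and all 24 were measured. Of the 24, 18 had a negative log2 fold change, the median was -0.29, 2 passed the unadjusted threshold toward MSC (6.43% of all genes) and 1 of these the adjusted one (0.383%). The unadjusted count was 5 in the blocked fit, against 10.9% of all genes, and also 5 when MSC replicate 3 was left out, against 11.4%. That gene, Dync1i1, an intermediate chain of the minus-end motor dynein, fell from 59.3, 43.7 and 62.0 in MSC to 8.76, 10.7 and 9.14 in TAC (log2 fold change -2.40, SE 0.30, adjusted p = 0.0389 by limma, range over 18 alternatives 1.7e-12 to 0.641). Its call too was lost when any library other than MSC replicate 3 was left out. The other was the cargo adaptor Mapk8ip1 (log2 fold change -1.59, SE 0.36), and the largest positive value was that of Bicd1 (0.98, SE 1.12, and -0.28 without MSC replicate 3). Klc1, a light chain of conventional kinesin, was 116.6, 117.0 and 31.1 in MSC and 76.2, 85.4 and 34.3 in TAC (log2 fold change -0.31, SE 0.60). For Klc1 the value was -0.93 without MSC replicate 3 but 0.097 without TAC replicate 3. Kifap3, the third subunit beside Kif3a and Kif3b, was 32.1, 29.99 and 14.0 in MSC and 18.8, 20.7 and 6.92 in TAC (log2 fold change -0.72, SE 0.52). It was lower in TAC in each pair, with overlapping groups.

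Of 20 genes of ciliary transport and Hedgehog signaling, 0 passed either threshold with limma. The unadjusted one was passed by 3 in the blocked fit (10.9% of all genes) and by 2 when MSC replicate 3 was left out (11.4%), all toward MSC, and the median log2 fold change was 0.09. The extremes were Ift74 at 0.88 (SE 0.50) and Ift81 at -0.99 (SE 0.51). Gli1 was 256.4, 244.9 and 421.6 in MSC and 152.8, 141.0 and 395.9 in TAC (log2 fold change -0.54, SE 0.48).

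Markers of other cells were read beside both classes. Epithelial markers, of which 9 of 10 were listed, had summed levels of 3663, 3601 and 299.7 in MSC and 3273, 3346 and 2155 in TAC. Those sums were carried by the enamel protein genes Amelx, Ambn and Enam. The adhesion and keratin genes Epcam, Cdh1, Krt5, Krt14 and Krt17 were instead higher in every TAC sample than in any MSC sample, by 1.57-fold for Krt14 to 2.92-fold for Epcam in replicates 1 and 2 (5 of 9, where 12.3% of all genes did not overlap toward TAC). Epcam and Krt17 passed the unadjusted threshold (2 of 9, against 5.42% of all genes). The log2 fold change was positive for all 9 on the 6 samples, for 7 of 9 in replicates 1 and 2 and for 6 of 9 without MSC replicate 3. In MSC replicate 3 Epcam, Cdh1, Krt17 and Trp63 had no read. Odontoblast marker sums were 14860, 14760 and 2485 in MSC and 15990, 15920 and 13060 in TAC, and 0 of the 8 had groups without overlap. All 8 had a positive log2 fold change on the 6 samples, but 5 were higher and 3 lower in TAC in replicates 1 and 2 (median 0.19, against 2.53 in replicate 3). The part of epithelial and odontoblast cells in the mitotic result was not tested.

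Neuronal markers, of which 11 of 14 were listed and 5 passed the filter, had summed levels of 11.2 to 21.6 in MSC and 20.8 to 26.7 in TAC, and their members differed in direction. Stmn2, a neuronal microtubule regulator, was 2.51, 1.62 and 6.87 in MSC and 0.0219, 0.192 and 0.0228 in TAC, without overlap (log2 fold change -1.95, adjusted p = 0.243 by limma), and passed the unadjusted threshold. Uchl1 was 3.28, 0.927 and 4.21 in MSC and 0.350, 0.480 and 1.18 in TAC, higher in MSC in each pair (log2 fold change -1.10). Tubb3, a neuronal tubulin, was 3.15, 3.86 and 0.00666 in MSC and 16.97, 18.6 and 14.1 in TAC (log2 fold change 2.68) and passed the unadjusted threshold toward TAC. Its value was 1.96 without MSC replicate 3, where it had no read, and it then passed the adjusted threshold by limma, as it did in 4 of 17 alternatives in all. In MSC replicate 3, 7 of the 11 had no read. Nefl was below 0.1 in every sample of both groups. Snap25 and Scn10a were 2.30 and 1.09 in TAC replicate 3 and below 0.1 in every other sample.

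Mural cell markers were higher in MSC, with summed levels of 831 to 1489 against 88.6 to 126.5 in TAC, and 5 of 7 tested passed the adjusted threshold (0.383% of all genes toward MSC). Without TAC replicate 3, 1 of the 7 passed (0.129% of all genes), without MSC replicate 3, 4 passed (1.19% of all genes), and 0 of all genes passed when replicate 1 or 2 of either group was left out (1029 to 1362 genes passed at an unadjusted p under 0.05 there). At an unadjusted p under 0.05 all 7 passed by limma on the 6 samples, against 6.43% of all genes toward MSC. Endothelial sums were 261 to 266 against 82.5 to 104.5, and Schwann cell sums 73.6 to 179 against 52.3 to 66.6. Macrophage sums were 79.8, 74.9 and 177 in MSC and 43.1, 46.6 and 112.6 in TAC, higher in MSC in each pair. The part of neurons, mural cells, endothelium, Schwann cells and macrophages in the transport kinesin result was not tested.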

How the data were processed

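RNA of 3 MSC and 3 TAC samples was sequenced by the authors as single-end reads of 75 bases. The submitters' processing notes name CASAVA 1.8.2, TopHat2 2.0.8, Partek and mm10, while how reads were counted, and whether by strand, was not given in the sources used here. The deposited values are a normalized signal. The methods state RPKM, but the lowest value of each library was shared by genes of any length, so the values were read as (estimated reads + 1) divided by a size factor. Of low values (below 200 reads), 65.1% to 71.8% per library were whole within 0.02 reads, so no count test was the main one.

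The test had been planned for RPKM and was kept, since it works on a log scale. With limma 3.58.1 in R 4.3.3, log2(value + 1) was fitted with a variance trend for the 15391 of 23718 genes with a mean of at least 1 (38 of 39 kinesins), TAC minus MSC, two-sided, with Benjamini-Hochberg adjustment over all genes tested and a threshold of 0.05. A pseudocount of 1 understates changes of low genes. Standard errors are those of the limma fit, and p-values measure the spread between these samples. The unadjusted level of 0.05 was counted too, since the study names it. Exon lengths and overlaps came from GENCODE M21. Only the main fit was tried on simulated data. Those data did not hold the missing reads of replicate 3, so that trial cannot tell how the missing reads affect the fit.

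The members, classes and lists were chosen with earlier results of these data known. Single values are given for members past the adjusted threshold, for the 5 largest changes of each class and for members and partners listed by role. Sequences shown beyond the member of each class with the largest change were chosen after their matches were seen.

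Deviations from group means correlated across genes at 0.477, 0.466 and 0.517 for samples of the same number. Crossing replicates 1 and 2 between the groups gave 0.462 and 0.480, so the shared deviation was that of replicate 3. The numbers were still used as pairs and as the block, although these values do not show which replicates 1 and 2 belong together. Alternatives covered the pseudocount, filters, scaling, variance models, the replicate block, a term for replicate 3, samples left out and limma voom.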

Additional observations from a re-analysis of the deposited data

How the results depend on the processing

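With the replicate block, 1 transport kinesin came under the adjusted threshold and 9 under the unadjusted, 2 others passed the unadjusted one, and 229 and 3136 of all genes passed the 2 thresholds. It raised the mitotic count past the unadjusted threshold from 10 to 12 and changed no other adjusted call of a kinesin. Replicates 1 and 2 alone gave 13 mitotic, 12 transport and 7 other kinesins past the adjusted threshold, 13 transport and 7 others past the unadjusted one, and 7433 and 8356 genes, where only the narrow spread of those libraries sets the error. A term for replicate 3 gave 11 mitotic and 6 transport kinesins past the adjusted threshold, 10 transport and 3 others past the unadjusted one, and 1814 and 4554 genes. With replicates 1 and 2 averaged, 0 mitotic, transport or other kinesins came under the adjusted threshold by limma, as 8 genes did, and 7 mitotic and 1 transport kinesin came under the unadjusted one, as 589 genes did. Genes past the adjusted threshold numbered 38 with a pseudocount of 0.1, 114 with quantile normalization, 29 without the variance trend (1 other kinesin then passed the unadjusted threshold) and 6 with voom. A minimum mean of 10 left 1192 genes past the unadjusted threshold.

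Leaving out 1 library gave 0 to 280 and 1029 to 3112 genes past the 2 thresholds, 0 to 2 mitotic kinesins past the adjusted and 6 to 11 past the unadjusted one, 3 to 6 transport kinesins and 0 to 2 others past the unadjusted one. The median log2 fold change of the mitotic kinesins was 1.70 to 2.57 without 1 library and 3.71 with voom. The difference in mitotic share, 31.3 percentage points, was 31.8 with Kif2a and Kif24 counted as mitotic, 27.7 without division by length and 32.0 without Kif2c. Without 1 library it was 31.2 to 31.5. The cause of these shifts was not tested.

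Every mitotic kinesin kept its direction in all alternatives run. None of these was replicate 3 alone, where Kif2c differed by -1.18 on the log2 scale. Reversed were Kif16b (-0.51), Kif21a (-0.51), Kif26b (-0.028) and Kif3b (-0.21) in replicates 1 and 2 alone, Kif21a (-0.016) under quantile normalization, Kif27 (2.03) and Kif5c (0.046) with voom, and Kif5c (0.033) with replicates averaged. Leave-one-out ranges that crossed 0 were -1.06 to 1.07 for Kif16b, -0.97 to 0.082 for Kif1b, -0.91 to 0.68 for Kif21a, -0.65 to 1.82 for Kif24, -0.41 to 1.42 for Kif26a, -1.11 to 2.02 for Kif26b, -1.23 to 0.092 for Kif27, -0.32 to 0.51 for Kif3b, -0.43 to 1.24 for Kif5b, -0.45 to 0.11 for Kif5c, -0.90 to 0.20 for Kif6 and -0.46 to 0.013 for Kifc3. None of these 12 passed either threshold in the fit of all 6 samples without the block. In the blocked fit Kif1b had an unadjusted limma p of 0.0212.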
